A study of Mus musculus with 21 samples.

Results

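The 4 Tead genes, Yap1 and Wwtr1 encode the nuclear end of Hippo signalling, and peaks in and around these 6 genes were described in mouse embryoid bodies with and without induced Sox7. Regions were taken by position: every peak of the ChIP, input and ATAC lists that lay inside a gene body or within 50 kb of it on mm10. This gave 68 regions of 55846, of which 7 came from ChIP and 61 from ATAC. Tead1 held 4 of the ChIP regions, Tead3 held 2 and Tead4 held 1, while Tead2, Yap1 and Wwtr1 held 0. The genes and regions were chosen by the presence and score of the peaks themselves, so these values are given as a description, with no test between groups.

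Hippo signalling is a kinase cascade that limits tissue growth. Its kinases Stk3 and Stk4 activate Lats1 and Lats2, which phosphorylate the coactivators YAP (encoded by Yap1) and TAZ (encoded by Wwtr1) and so keep them out of the nucleus. Unphosphorylated YAP and TAZ enter the nucleus and bind the TEAD factors (Tead1 to Tead4), which carry the DNA-binding domain that the coactivators lack. In the mouse embryo, Tead1 is required for heart development, Tead4 for the trophectoderm, and YAP and TAZ in endothelial cells for vessel growth.

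The series studied Sox7, a SOXF transcription factor of early blood vessels and blood progenitors. All samples came from 1 line, A2lox-Sox7-Myc (derived from E14Tg2a embryonic stem cells), which makes Myc-tagged Sox7 when doxycycline is present, grown as embryoid bodies to day 4. Induced cultures received 1 µg/ml doxycycline for 24 h and uninduced cultures carried the same transgene without doxycycline. Anti-Myc ChIP-seq of unsorted cells gave 4 induced lists, 4 uninduced lists and 1 input list. ATAC-seq gave 2 induced and 2 uninduced lists of PDGFRα+FLK1+ cells, called CPC for cardiac progenitors, and the same of PDGFRα−FLK1+ cells, called EPC for endothelial progenitors. The growth protocol names yet another sort, PDGFRα+FLK1−, and groups follow the sample characteristics. Whether replicates were separate cultures is not given in the labels.

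Induced ChIP lists held 1061 to 2807 peaks and uninduced ones 772 to 1059, against 689 in the input list. Induced ATAC lists held 27979 to 30732 peaks and uninduced ones 23068 to 27934. The read depth behind the lists is unknown, so a peak missing from a list can come from a shallower library as well as from a closed or unbound site. Each score below is the authors' own peak score, which grows as the caller's p-value shrinks. It ranks peaks within 1 list and cannot be compared between lists. Scores of several lists stand side by side to show the values, and where they overlap or do not, or where ranks differ, that describes the lists and shows no change in accessibility or binding. Uninduced ChIP lists 2 and 4 shared 585 of 772 peak starts (75.8%), against at most 1.04% for every other pair, and are treated as a single library. At the Sox7 gene an ATAC region (chromosome 14, 63947488 to 63948950) was present in 4 of 4 induced and 0 of 4 uninduced lists. Across the whole Sox7 gene body there were 2 ATAC peaks in each of the 4 induced lists, and 1 in each of 3 uninduced lists and 0 in uninduced CPC list 1. Whether reads from the Sox7 transgene have a part in these peaks was not tested. Of 10 endothelial and blood marker genes, 6 had a region found in all EPC lists and in no CPC list, and 0 had the reverse. Of 10 cardiac marker genes, 2 (Hand2 and Tbx20) had a CPC-only region and 1 (Mef2c) an EPC-only region. The genes of the sorting receptors, Kdr and Pdgfra, had neither kind of region.

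Start sites were under an ATAC peak in every list at Yap1 and Wwtr1, and in fewer lists at Tead2 and Tead3. Promoters, from 250 bases before the start to 50 after it, were available from RefSeq (GRCm38.p6) for 4 of the 6 genes (7 promoters), and each lay wholly inside a merged ATAC region. The promoters of Yap1 and Wwtr1 were covered whole by a peak in all 8 lists. At Tead2 the merged region was present in all 8 lists, but a peak touched the promoter in 4 and lay over the start site in 3 (uninduced CPC list 2, induced EPC list 2 and uninduced EPC list 1). The Tead3 region was present in 5 of 8 lists, and for the promoter shown a peak touched it in 5 and lay over its start site in 4. One promoter of each gene is shown, as the stretch at the start of transcription over which the ATAC lists differ between the 4 genes. Capitals mark GGAATG or its reverse complement CATTCC, the core of the element that TEAD factors bind. The strand is plus for Tead2 (chr7:45215542-45215841) and minus for Tead3 (chr17:28350551-28350850), Yap1 (chr9:8004547-8004846) and Wwtr1 (chr3:57575861-57576160).
Tead2: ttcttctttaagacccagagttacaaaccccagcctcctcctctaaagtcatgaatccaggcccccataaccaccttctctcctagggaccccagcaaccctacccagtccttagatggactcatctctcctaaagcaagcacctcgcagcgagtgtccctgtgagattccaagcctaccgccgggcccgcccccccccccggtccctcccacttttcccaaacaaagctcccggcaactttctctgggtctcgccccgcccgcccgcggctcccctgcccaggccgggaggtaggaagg
Tead3: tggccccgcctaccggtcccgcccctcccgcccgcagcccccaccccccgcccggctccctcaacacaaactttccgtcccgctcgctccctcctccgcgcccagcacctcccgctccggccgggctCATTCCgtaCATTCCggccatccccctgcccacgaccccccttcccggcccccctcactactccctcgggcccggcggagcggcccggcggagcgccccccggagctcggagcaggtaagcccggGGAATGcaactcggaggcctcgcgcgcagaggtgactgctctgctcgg
Yap1: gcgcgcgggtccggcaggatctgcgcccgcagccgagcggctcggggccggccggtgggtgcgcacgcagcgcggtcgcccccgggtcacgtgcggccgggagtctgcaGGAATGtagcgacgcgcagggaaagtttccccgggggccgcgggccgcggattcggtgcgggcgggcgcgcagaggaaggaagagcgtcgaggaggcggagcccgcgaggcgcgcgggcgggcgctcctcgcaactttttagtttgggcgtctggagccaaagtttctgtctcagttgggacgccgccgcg
Wwtr1: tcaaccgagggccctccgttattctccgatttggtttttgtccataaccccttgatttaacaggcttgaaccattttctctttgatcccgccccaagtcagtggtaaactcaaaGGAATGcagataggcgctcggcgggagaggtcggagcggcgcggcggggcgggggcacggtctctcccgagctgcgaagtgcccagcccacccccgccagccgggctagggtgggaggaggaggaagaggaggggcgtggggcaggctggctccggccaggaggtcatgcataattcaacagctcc

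The TEAD element occurred once in the Yap1 promoter, with its first base at position -141 from the start site, and once in the Wwtr1 promoter shown, at -136. The Tead3 promoter shown held it at -123, -114 and 3, and a second Tead3 promoter, further upstream, held it at -182. The Tead2 promoter held none. Searched on both strands, the element lies in 14.7% of all 32851 promoters and in at least 1 promoter of 16.6% of 27025 genes. Among the 9690 promoters with a GC content of at least 60%, as all 7 promoters here have (61.3% to 75.3%), the share was 9.4%. ACAATG or CATTGT, a core sequence that SOX factors bind, occurs in 12.6% of all promoters and in none of the 7. These letter matches are a description of the windows and not of binding.

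In the regions that hold the start sites, that of Tead2 (45215455 to 45217204) had ATAC scores of 102 and 206 in induced CPC, 89.9 and 137 in uninduced CPC, 304 and 425 in induced EPC, and 314 and 245 in uninduced EPC. In 5 of the 8 lists the Tead2 peak began downstream of the start site at 45215792, so these scores describe the region and not the start site. The Yap1 region (8003116 to 8005383) scored 389.8 and 564 in induced CPC, 556 and 200.2 in uninduced CPC, 732 and 1048 in induced EPC, and 668 and 300.3 in uninduced EPC. The Wwtr1 region (57574550 to 57577024) scored 603 and 524 in induced CPC, 797 and 533 in uninduced CPC, 684 and 814 in induced EPC, and 899.8 and 433 in uninduced EPC. In all 3 genes the ranges of induced and uninduced scores overlapped within each cell type, except at Yap1 in EPC. The Tead3 start region (28350135 to 28351478) was the weakest, with scores of 84.9 in induced CPC list 2, 80.2 and 61.1 in uninduced CPC, 90.6 in induced EPC list 2 and 122 in uninduced EPC list 1. It was absent from list 1 of both induced cell types and from uninduced EPC list 2.

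Tead1 (chromosome 7, 112679356 to 112906784) has a gene body of 227 kb, the longest of the 6, and carried most of the anti-Myc peaks. A region 144 kb into the gene body from its lower boundary (112823135 to 112824320, 1186 bp) had a peak in 4 of 4 induced ChIP lists, with scores of 246, 200.5, 551 and 239, against no peak in any uninduced list or in the input list. The 4 peaks ranked 236 of 1511, 339 of 1851, 155 of 2807 and 233 of 1061 in their own lists. All 4 thus stood between the top 5.52% and the top 22% of their lists. The ChIP cells were unsorted, so binding in more cells and stronger binding per cell cannot be told apart. Exons and introns were not used here. The series had 235 induced sites, where induced means peaks in 3 or 4 of the induced lists and none in the uninduced lists, and 95 of these had a peak in all 4 induced lists, as the Tead1 site did.

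The Tead1 site was the single induced site among the 7 ChIP regions of the 6 genes (14.3%), where 5.13% of all 4582 ChIP and input regions were induced sites. Counted by gene, 1 of the 6 had an induced site in its body or within 50 kb, where 1.88% of 21887 protein-coding genes did. Without induced list 1, or without induced list 4, and with peaks then required in 2 of the remaining 3 lists, the Tead1 region at 5.6 kb also counted as an induced site, and the share of all regions that did was then 10.5% or 12.8%. With all lists in use, 4.12% of the 826 genes with bodies at least as long as that of Tead1 had an induced site in the body or within 50 kb. Since the genes were chosen with this site known, no inference rests on these shares.

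**Figure D1:**
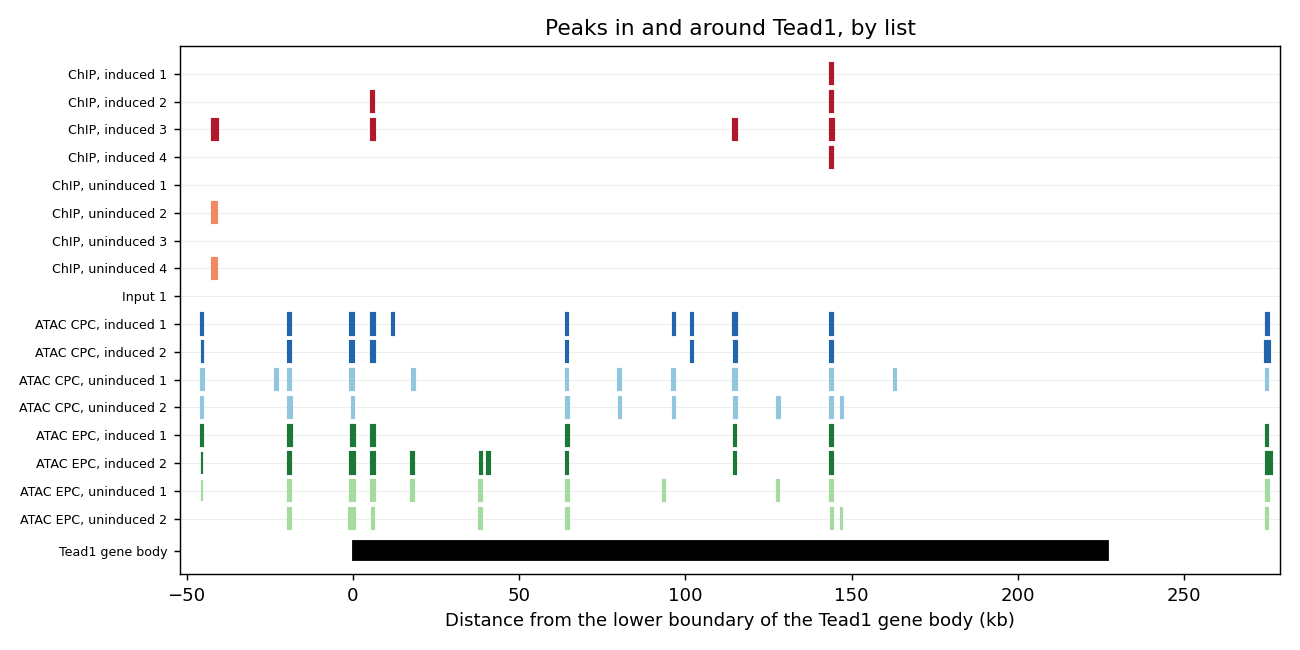
Peaks in and around Tead1 in each of the 17 lists (rows), against the distance in kb from the lower boundary of the gene body (black bar), with each block drawn to the width of its peak. The ChIP peak at 144 kb stands in all 4 induced lists and in no uninduced or input list, and an ATAC peak stands at the same place in all 8 ATAC lists.

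Chromatin at the Tead1 site was accessible with and without doxycycline. The ATAC region there (112823261 to 112824291) had a peak in all 8 lists and covered 1031 bp (86.9%) of the ChIP region, with midpoints 48 bp apart. Its scores were 229 and 327 in induced CPC, 324 and 139.7 in uninduced CPC, 498 and 260.4 in induced EPC, and 305 and 123 in uninduced EPC. The induced and uninduced scores overlapped in both cell types. Of the 235 induced sites, 58 (24.7%) likewise had an ATAC peak in all 8 lists, while 24 (10.2%) had an ATAC peak in no list.

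A second place in Tead1, 5.6 kb into the gene body, joined a weaker ChIP signal to an ATAC region gained in CPC. The ChIP region (112684955 to 112685941) had a peak in induced list 2 (score 45.4) and induced list 3 (score 101), and in no other list. In those lists the peaks ranked 1584 of 1851 and 834 of 2807, far lower than the peaks at 144 kb. The ATAC region (112684747 to 112686141), which contains the whole ChIP region once peaks are merged, scored 168 and 255 in induced CPC and had no peak in either uninduced CPC list. In EPC it was present in all 4 lists, with scores of 710.5 and 549 in induced EPC against 185 and 147 in uninduced EPC. The induced EPC peaks stood in the top 14% and top 18.9% of their lists, and the uninduced ones in the top 46.1% and top 48.1% of theirs. Induced and uninduced scores of EPC did not overlap, but as scores move with a depth that is unknown, the part of depth in this difference was not tested.

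The third place, 115 kb into Tead1, had a ChIP peak (112794164 to 112795171) in induced list 3 alone, with a score of 61.4. The ATAC region around it (112794104 to 112795341) was gained in EPC: it scored 66.7 and 52.2 in induced EPC and had no peak in uninduced EPC. Those scores lie close to the lowest in the lists, which is about 50, and ranked in the top 82.5% and top 97.1%. CPC had the region in all 4 lists, with scores of 201 and 226 in induced CPC and 388 and 172 in uninduced CPC, so the CPC groups overlapped. The gained call in EPC thus rests on peaks just past the caller's threshold.

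**Figure D2:**
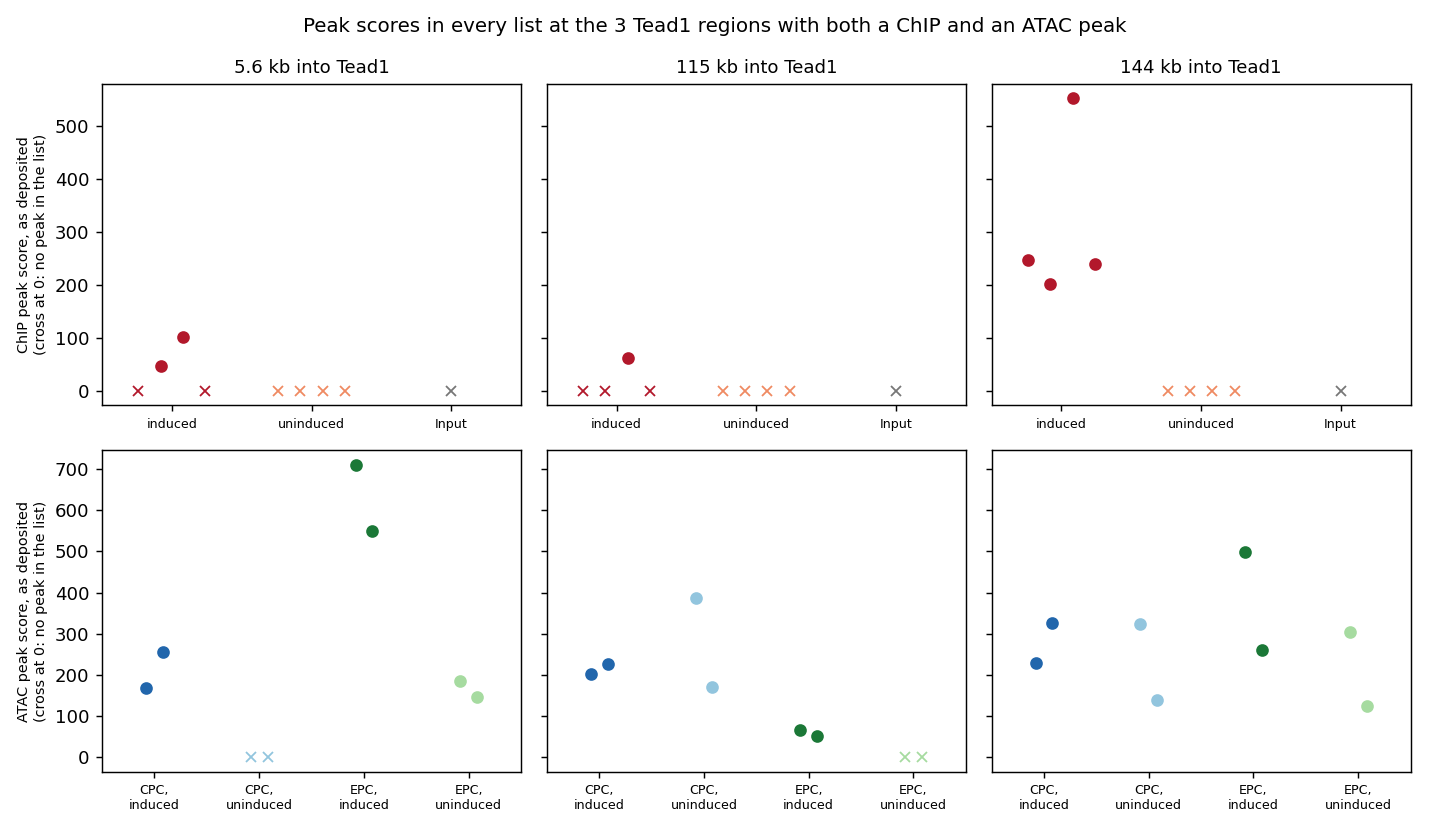
Deposited peak scores (y axis, with a cross at 0 for no peak) in every ChIP and input list (upper row) and every ATAC list (lower row) at the 3 Tead1 regions with both a ChIP and an ATAC peak. At 144 kb all 4 induced ChIP lists have a peak, of which list 3 is highest at 551, and all 8 ATAC lists have one; at 5.6 kb both uninduced CPC lists lack the ATAC peak, and at 115 kb both uninduced EPC lists lack it.

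The last Tead1 ChIP region lay outside the gene, 40.6 kb below it (112636958 to 112638802), and had peaks with and without doxycycline. It scored 101 in induced list 3, and 76 and 76.4 in uninduced lists 2 and 4, which are counted as 1 library. No ATAC list had a peak there.

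The authors' deposited tables hold the same places. Their list of 666 Sox7 regions includes 2 around these genes, both in Tead1, at 112684963 to 112685861 and 112823190 to 112824291. The authors' deposited table of 117 regions shared by Sox7 and Gata4 also includes both Tead1 places, and how the Gata4 regions were obtained is not given in the sources used here. Of the 3093 regions in the authors' deposited table for induced CPC alone, 2 lay in Tead1 (112684944 to 112685976 and 112780829 to 112781422). Their deposited table for induced EPC alone holds 3267 regions, with 1 in Tead1 (112794404 to 112794908), 1 above Tead4 (128349440 to 128350163) and 1 in Yap1 (7983633 to 7984141). These 5 entries are the same 5 regions that the presence of peaks in both induced and neither uninduced list called gained. Their starts and ends, and those of the Sox7 regions, are boundaries of peaks in the induced lists used here. The match therefore comes from the same peaks and is no independent support.

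Accessibility in and around Tead1 came to 20 ATAC regions, 16 of them touching the gene body, or 6.11 per 100 kb of gene and flanks. Over all protein-coding genes the median was 3.01 per 100 kb. Besides the regions above, 1 at 101 kb (112780694 to 112781494) was gained in CPC, with scores of 63.6 and 99.9 in induced CPC and no peak in uninduced CPC or in EPC. Another at 79.9 kb (112759231 to 112759961) was lost in CPC, with no peak in induced CPC or in EPC and scores of 64.8 and 86.3 in uninduced CPC. The region over the lower boundary (112678360 to 112680043) was present in all 8 lists, with scores of 164 and 181 in induced CPC, 322 and 56.0 in uninduced CPC, 227 and 285 in induced EPC, and 437 and 236 in uninduced EPC. Of the 20 regions, 4 were present in every list and 5 in a single list.

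Tead2 (chromosome 7, 45215792 to 45233468) is a TEAD factor of early embryonic tissue and had no region that differed between groups. Its 7 ATAC regions included 2 present in all 8 lists, 1 that spans its start site once peaks are merged and 1 located 32.9 kb below the gene (45181866 to 45182932), and 1 present in a single list. Just 1 of the 7 touched the gene body of 17.7 kb. Its flanks are shared with 8 other protein-coding genes, among them Kash5, Cd37 and Slc6a16, whose bodies hold 5 of the regions.

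Tead3 (chromosome 17, 28331671 to 28350805), a TEAD factor described in human placenta, had 5 ATAC regions and 1 of them was lost in CPC. This region, 26.8 kb below the gene (28304105 to 28304854), had no peak in induced CPC or in EPC and scored 69.3 and 88.5 in uninduced CPC. Both ChIP regions at Tead3 were single peaks near the caller's lower limit of about 40. One, at 28330900 to 28332003, overlapped both Tead3 and its neighbour Rpl10a and scored 44.3 in induced list 1. The other, at 28328158 to 28328871 inside Rpl10a, scored 48.1 in induced list 3 and lay in an ATAC region (28327800 to 28329084) that was present in all 8 lists with scores of 109.9 to 226.

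Tead4 (chromosome 6, 128227143 to 128300813), the TEAD factor of the trophectoderm, had 11 ATAC regions, of which 3 differed between groups. An EPC-only region in the gene body, 69 kb from its lower boundary (128296140 to 128297248), had no peak in any CPC list. It scored 163 and 183 in induced EPC and 89.2 and 66.0 in uninduced EPC. Within their own lists these peaks stood in the top 47.5% and top 44.1% in induced EPC and in the top 69.9% and top 82% in uninduced EPC, lists that differ in length and in a depth that is unknown. A region 7.29 kb above the gene (128308107 to 128308910) was lost in EPC, with no peak in induced EPC, scores of 85.9 and 85.1 in uninduced EPC, and a score of 67.3 in uninduced CPC list 1. Further out, 48.6 kb above Tead4 and inside Tulp3 (128349426 to 128350354), a region was gained in EPC, with scores of 72.2 and 115 in induced EPC and no peak in uninduced EPC or in CPC. Regions called lost and called gained in EPC thus both lay near Tead4, outside its gene body.

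Around Tead4 also lay the strongest ATAC region of the 6 genes, 25.5 kb below the gene and in no protein-coding gene (128199792 to 128201642). It scored 2027 and 1982 in induced CPC, 2124 and 1599 in uninduced CPC, 2803 and 2551 in induced EPC, and 3100 and 1425 in uninduced EPC. In each of the 8 lists it stood between the top 1.3% and the top 2.84%, and the induced and uninduced scores overlapped in both cell types. At the gene's upper boundary a region (128299379 to 128301454) was present in all 8 lists with scores of 156 to 408. Just inside its lower boundary another (128227101 to 128228427) was present in 7 of 8, missing from uninduced CPC list 2. The ChIP peak of Tead4, 5.58 kb below the gene (128220547 to 128221567), scored 46.7 in induced list 3 alone and had no ATAC peak.

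**Figure D3:**
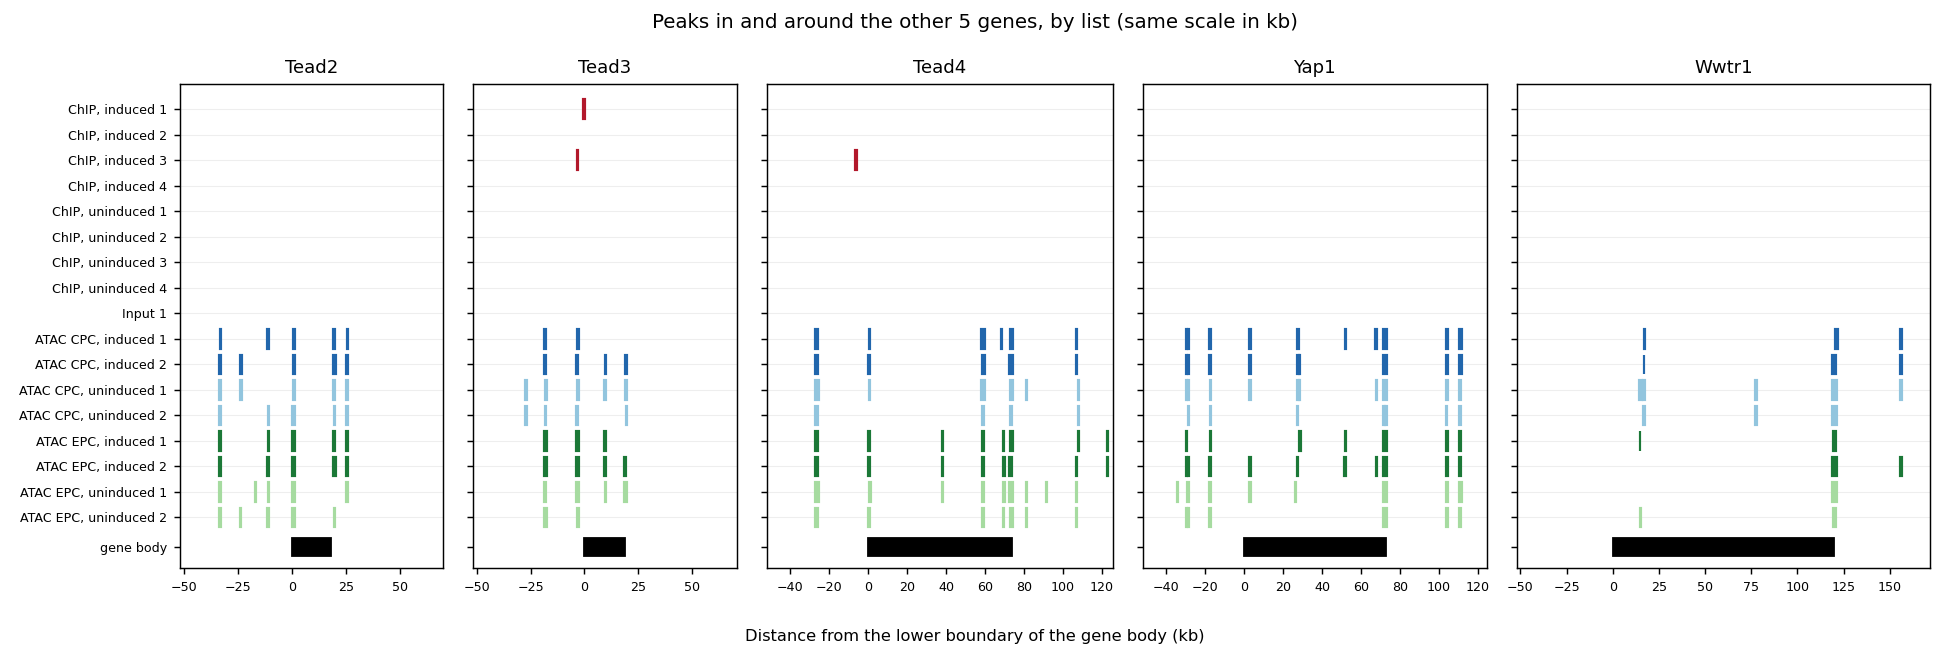
Peaks in and around Tead2, Tead3, Tead4, Yap1 and Wwtr1 in each of the 17 lists (rows), against the distance in kb from the lower boundary of each gene body (black bar). ChIP peaks are limited to 3 single peaks in induced lists at Tead3 and Tead4, while the regions over the upper boundary of Yap1 and Wwtr1 recur in all 8 ATAC lists.

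Yap1 (chromosome 9, 7931999 to 8004638), the gene of the coactivator YAP, had no ChIP region and the highest density of ATAC regions of the 6 genes, with 13 regions or 7.53 per 100 kb. Of these, 1 was gained in EPC: a region 51.5 kb into the gene body (7983522 to 7984294) scored 69.7 and 72.1 in induced EPC and had no peak in uninduced EPC. The same region had a peak in induced CPC list 1 (score 80.7) and in no other CPC list, so it was seen in 3 induced lists and no uninduced one. The 3 peaks ranked low in their lists, between the top 72.2% and the top 80.2%. Of the remaining Yap1 regions, 4 were present in all 8 lists. They comprise the start region and 3 outside the gene, of which the highest-scoring lay 37.5 kb above it inside Cfap300 (8042111 to 8043431), with scores of 351 to 948.

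Wwtr1 (chromosome 3, 57455644 to 57575910), the gene of the coactivator TAZ, had the fewest regions for its length, 5 in all or 2.27 per 100 kb, and no ChIP region. Of these, 2 differed between groups, and both were found in CPC lists and in no EPC list. The CPC-only region (57472052 to 57472999), 16.4 kb into the gene body, scored 94.3 and 51.3 in induced CPC and 254 and 192 in uninduced CPC. Within their own lists these peaks stood in the top 65.5% and top 98.1% in induced CPC and in the top 34.9% and top 34.8% in uninduced CPC, and the part of list length and depth in this was not tested. The second region, 77.1 kb in (57532777 to 57533730), was lost in CPC, with no peak in induced CPC and scores of 70.5 and 168 in uninduced CPC. The start region was the single Wwtr1 region present in all 8 lists.

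**Figure D4:**
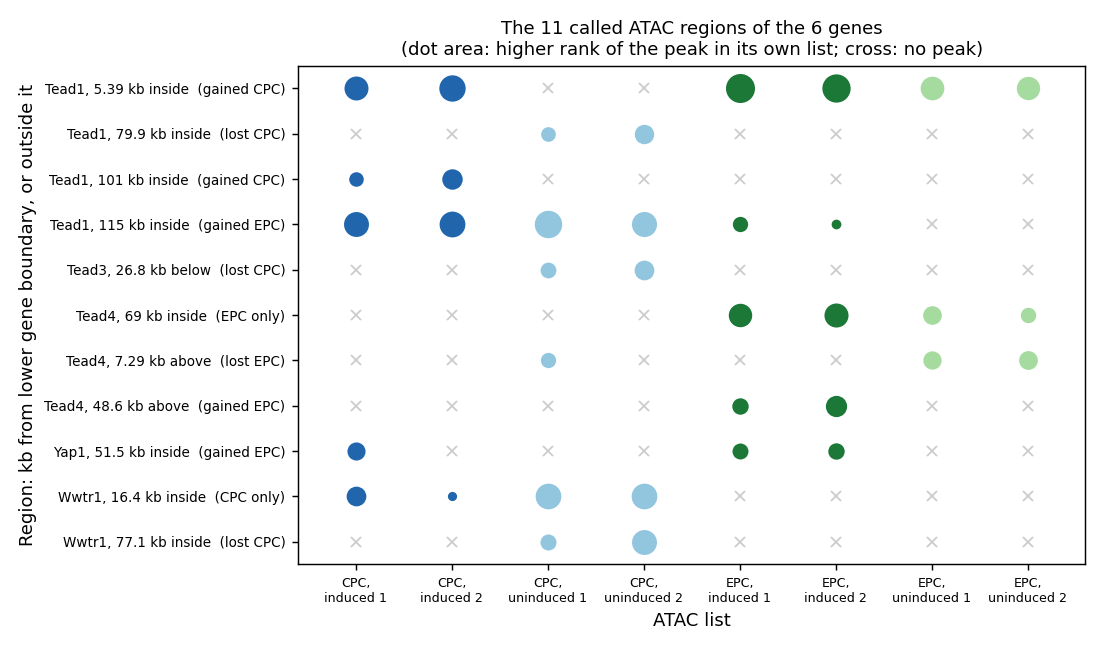
The 11 ATAC regions of the 6 genes that were gained, lost, CPC-only or EPC-only (rows) in each of the 8 ATAC lists (columns). A dot marks a peak, with an area that grows with its rank within its own list, and a cross marks no peak; Tead1 has 4 of the 11 and Tead2 has none.

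Set beside all 51264 ATAC regions, those of the 6 genes differed between groups about as often. In CPC, 2 of 61 (3.28%) were gained, where 5.75% of all regions were, and 3 of 61 (4.92%) were lost, where 2.35% of all regions were. In EPC, 3 of 61 (4.92%) were gained against 6.12% of all regions, and 1 of 61 (1.64%) was lost against 1.82%. CPC-only regions numbered 1 (1.64% against 1.8% of all regions) and EPC-only regions 1 (1.64% against 2.1%). Any of these differences was seen in 11 of 61 regions (18%), where 18.7% of all regions had one. With single lists left out, the share of all regions with each call rose, while the counts here rose in some cases and not in others. Regions gained in CPC stayed at 2 of 59 without induced CPC list 1, where 11.9% of all regions were gained. Regions lost in EPC stayed at 1 of 61 without induced EPC list 1, where 3.29% of all regions were lost. Gained regions in CPC then numbered 7 of 59 without uninduced CPC list 1, where 10.7% of all regions were gained. In EPC they numbered 7 of 61 without induced EPC list 1, where 14.3% of all regions were gained, and 7 of 56 without uninduced EPC list 1, where 11.3% were. Lost regions numbered 8 of 61 in CPC without uninduced CPC list 2 (9.02% of all regions) and 7 of 61 in EPC without uninduced EPC list 2 (8.03% of all regions). With all lists in use the shares lie near the background, and no share here is a result about Tead and Yap genes as a group. Of the 11 regions, 8 touched a gene body of the 6 and 3 lay outside, and in 5 of the 11 every peak scored under 100.

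Accessibility in every list was about as common as elsewhere. A peak in all 8 lists was found at 17 of 61 regions (27.9%), where 25.5% of all regions had one, and 8 of the 17 touched a gene body of the 6. Peaks seen in a single list made up 10 of 61 (16.4%), where 26.7% of all regions were seen once. A further 6 regions were present in 7 of 8 lists, and in 5 of these the missing list was an uninduced one. In 4 of the 5 it was uninduced list 2 of CPC or EPC, and those are the shortest ATAC lists of the series, with 23068 and 23694 peaks.

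**Figure D5:**
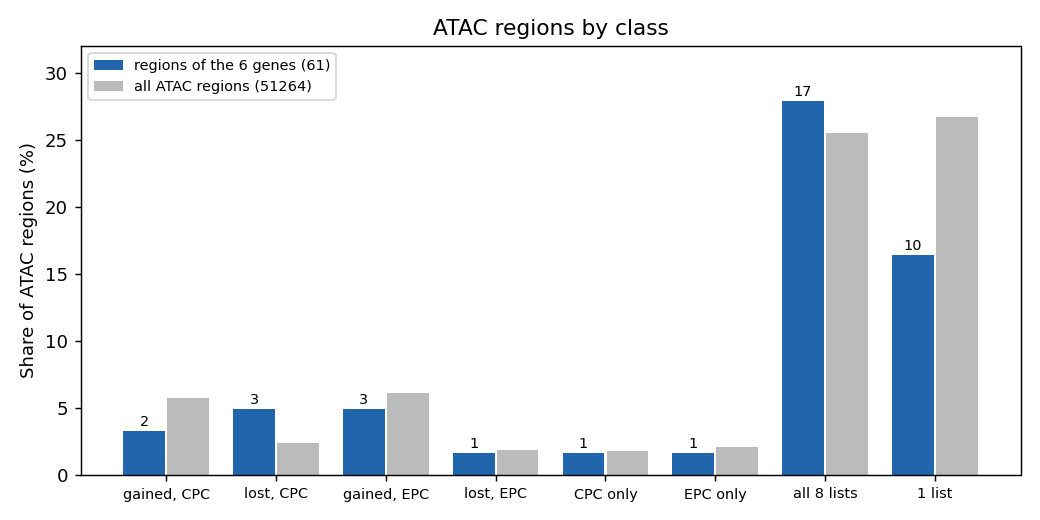
Share of ATAC regions (percent, y axis) in each class for the 61 regions of the 6 genes (blue, with the number of regions above each bar) and for all 51264 ATAC regions (grey). A peak in all 8 lists was seen at 27.9% of the 61 regions and 25.5% of all, and each of the other classes held 10 or fewer of the 61.

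The number of peaks per list was similar with and without doxycycline for ATAC. The 6 genes had 37 and 35 ATAC peaks in induced CPC, 43 and 33 in uninduced CPC, 33 and 41 in induced EPC, and 38 and 30 in uninduced EPC, and the groups overlapped in both cell types. As shares of their own lists, the peaks came to 0.126% and 0.125% in induced CPC and 0.156% and 0.143% in uninduced CPC, which did not overlap. In EPC the shares overlapped, with 0.114% and 0.133% in induced and 0.136% and 0.127% in uninduced lists. The part of list length and depth in these shares was not tested. ChIP peaks numbered 2, 2, 6 and 1 in the induced lists and 0, 1, 0 and 1 in the uninduced lists, against 0 in the input list. Induced list 3, with 6, is also the longest ChIP list of the series. None of the 7 ChIP regions of the 6 genes had an input peak, whereas 14.8% of all ChIP and input regions did.

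The rest of the Hippo pathway was described through 48 genes, all of which matched the gene table: 7 of the kinase cassette, 16 upstream regulators and adaptors, 4 TEAD cofactors of the Vgll family and 21 known target genes of YAP and TAZ. An induced ChIP site lay in or within 50 kb of 3 of them (6.25%, where 1.88% of all protein-coding genes had one). Of the 826 genes at least as long as Tead1, 4.12% had one, and the Hippo list was not matched for length. At Myof, the gene of the membrane repair protein myoferlin and a YAP target, a site inside the gene (chromosome 19, 37920786 to 37921880) scored 59, 63.2, 124 and 45.4 in the 4 induced lists. A site 28.2 kb from Taok3, a kinase upstream of the cassette (chromosome 5, 117303288 to 117304355), scored 76.1, 132 and 54.2 in induced lists 1, 3 and 4. The third, 7.05 kb from the target gene Arhgef17 and inside Relt (chromosome 7, 100861640 to 100862695), scored 60.3, 51.6 and 65.5 in induced lists 2, 3 and 4. In each induced list with a peak, these scores were below that of the Tead1 site at 144 kb. The kinase cassette and the TEAD cofactors had no induced site.

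Both gained and lost ATAC regions, as called by peak presence, lay at the other Hippo genes. At least 1 region gained in CPC was found at 17 of 48 genes (35.4%, where 18.5% of all genes had one) and at least 1 lost in CPC at 9 (18.8%, where 8.36% of all genes did). For EPC the counts were 13 with a gained region (27.1% against 19.6%) and 2 with a lost region (4.17% against 7.07%). A region gained in CPC and one gained in EPC occurred together at 6 genes, where 7.26% of all genes had both: Nf2 and Wwc2, which act upstream of the kinases, Taok3, the adaptor gene Ajuba, and the target genes Rbms3 and Myof. Among the 6 Tead and Yap genes, Tead1 alone had both kinds. Shares per gene rise with the length of the gene and its flanks, since 45.6% of the 826 genes at least as long as Tead1 had a region gained in CPC, and the Hippo list was not matched for length.

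Regions particular to 1 progenitor type were split over the pathway. CPC-only regions lay at 7 of the 48 genes (14.6%, where 5.02% of all genes had one): the kinase gene Lats2, the cadherin gene Dchs1, and the target genes Crim1, Foxf2, Nuak2, Rbms3 and Asap1. Those of Lats2, Crim1, Rbms3 and Asap1 lay inside the gene, and the others at 42.3 kb from Dchs1, 0.866 kb from Foxf2 and 10.7 kb from Nuak2, inside Klhdc8a. EPC-only regions lay at 8 (16.7% against 7.58%): the kinase gene Stk3, Taok3, the angiomotin gene Amot, the cofactor gene Vgll4, and the target genes Fjx1, Arhgef17, Nuak2 and Rbms3. Those of Stk3, Taok3, Amot and Rbms3 lay inside the gene. The region for Vgll4 lay 41.3 kb away inside Atg7, that for Nuak2 40.5 kb away inside Tmcc2, that for Fjx1 48.8 kb away, and the pair for Arhgef17 lay inside Relt and P2ry6. Of the 826 genes at least as long as Tead1, 16.5% had a CPC-only and 20% an EPC-only region, and the list was not matched for length. In the EPC-only region of Stk3 (chromosome 15, 34982820 to 34983786) scores were 194 and 271 in induced EPC and 246 and 223 in uninduced EPC. In that of Amot (chromosome X, 145479596 to 145480682) they were 269.7 and 316 in induced EPC and 426 and 301 in uninduced EPC. Among the 6 genes the same classes were seen once each, at Wwtr1 for CPC and at Tead4 for EPC. A region present in all 8 lists was found at 44 of the 48 genes (91.7% against 71.4% of all genes) and at 6 of the 6.

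The limit of 50 kb decides which regions belong to the 6 genes. The farthest region inside it lay 48.6 kb from Tead4 and was present in 2 lists, and the nearest outside lay 50.01 kb from Yap1 (present in 5 lists) and 51.64 kb from Tead2 (present in 1 list). No ChIP or input region lay between 50 kb and 75.82 kb from any of the 6. Rassf10, Tulp3, Cfap300 and Tm4sf4 each share the flanks of 1 of the 4 genes with few neighbours, and Tead2 and Tead3 share theirs with 8 and 5 other genes. A region in the flanks cannot be assigned to the member or to a neighbour from these files.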

How the data were processed

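Peak lists of 17 libraries (8 ChIP, 1 input and 8 ATAC) were analysed, with 4 further lists from the authors. The build was GRCm38 (mm10) per the submitters' processing notes, which name, with no role, Bowtie2, SAMtools, bedtools and MACS 1.4. Each peak has a score, deposited by the authors and used as it stands, which MACS 1.4 writes as -10 times log10 of the peak's p-value. The lowest score was about 40 in ChIP and input lists (50.07 in uninduced list 4) and about 50 in ATAC lists. The lists hold no read counts, so depth is unknown and no interval could be given.

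Peaks sharing at least 1 bp were joined into regions, ChIP with input and ATAC apart (Python 3.11.15). Uninduced ChIP lists 2 and 4 were counted as 1 library. Induced sites needed peaks in 3 or 4 of the induced ChIP lists and none in uninduced lists. Within a cell type, ATAC regions counted as gained with peaks in both induced lists and neither uninduced list, and as lost the other way round. Regions counted as CPC-only or EPC-only with peaks in the 4 lists of that cell type and none in the other. A region touching a gene body by 1 bp or more was taken as inside it, and where a list had several peaks in a region its highest score is given. Genes and promoters came from RefSeq tables of GRCm38.p6, with 21887 protein-coding genes. The code for the calls was run on simulated peaks planted in clear patterns of presence. This checks the code and not how well the calls hold in real lists.

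The 6 genes, the Hippo and marker lists and the calls were chosen with earlier results of these data known, so no test between groups was made. All 6 genes are named, with positions for regions that were called, lay at a start site, overlapped a ChIP region or had ChIP peaks in at least 2 lists; a few others were added after their values were seen. Alternatives were the window (gene body or 10 kb), the overlap that counts as shared, a score of at least 100, lists reduced to the shortest, the number of induced lists required, lists 2 and 4 counted apart, and each ChIP and ATAC list left out (uninduced ChIP lists 2 and 4 together, the input list not). The 4 RNA-seq samples were not analysed here.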

Additional observations from a re-analysis of the deposited data

Results flagged for a closer look

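At the Tead1 region 144 kb into the gene, the score of 551.49 in induced ChIP list 3 lay far from the scores of the other induced lists (200.46, 238.85 and 245.84), with a gap of 0.871 of the whole range. Induced list 3 is also the longest ChIP list, with 2807 peaks against 1061 to 1851 in the other induced lists, and the part of its depth in the high score was not tested. Among 3 groups of 4 values looked at in this way it was 1 that stood apart, where chance marks about 1 in 20. The scores come from lists of unknown depth at a region chosen with its scores known, so this describes the values and supports no statement. The Tead1 region had a peak in each of the 4 induced lists, so its call does not rest on list 3.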

How the results depend on the processing

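Of 144 alternative values of 10 results, 114 stayed within 1.5 times the reported count and 30 moved further. Lists of 1 cell type have no direct part in the gained and lost calls of the other. Leaving them out could thus hardly move those counts, and the 114 does not measure how stable the calls are. Requiring 2 of 4 induced lists gave 2 induced ChIP sites of 7 regions (both in Tead1), against 1. The share of all ChIP and input regions called induced was then 14.3%, against 5.13%. With scores of at least 100, 39 ATAC regions of the 6 genes were left. Regions gained in CPC, lost in CPC and gained in EPC fell to 1 each, where 5.87%, 2.04% and 6.08% of all regions were so called. Regions lost in EPC and EPC-only fell to 0 each, where 1.43% and 2.49% of all regions were. With ATAC lists reduced to 23068 peaks (ChIP lists to 689), regions gained in CPC and in EPC numbered 1 each of 55 and CPC-only regions 2. Of all regions, 4.65%, 4.59% and 2.24% were then so called. Counting gene bodies alone left 0 of 36 regions lost in EPC (1.82% of all regions). It left 8 of 36 present in all 8 lists (25.5% of all regions), and flanks of 10 kb left 9 of 40. Other Hippo genes with a called region numbered 16 of 48 by gene body and 20 with flanks of 10 kb, against 34 in the main count. The share of all protein-coding genes with any called region was not computed, so these gene counts have no background.

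Leaving out 1 list at a time, induced ChIP sites ranged from 1 to 2 (2 without induced list 1 or 4, with 2 of the remaining 3 lists required). In what follows, each percentage is the share of all regions with that call under the same setting. Regions gained in CPC ranged from 2 to 7 (5 of 62 without induced CPC list 2, 13%, and 7 of 59 without uninduced CPC list 1, 10.7%). Regions lost in CPC ranged from 3 to 8 (5 of 59 without uninduced CPC list 1, 5.4%, and 8 of 61 without list 2, 9.02%). Regions gained in EPC ranged from 3 to 7. They numbered 7 without induced EPC list 1 (14.3%) or uninduced EPC list 1 (11.3%), and 5 without uninduced list 2 (7.73%). Regions lost in EPC ranged from 1 to 7. They numbered 3 without induced EPC list 2 (3.75%) or uninduced EPC list 1 (4.8%), and 7 without uninduced list 2 (8.03%). CPC-only regions numbered 1 to 2 (2 without induced list 2 of CPC, 2.6%, or of EPC, 2.29%). EPC-only regions numbered 1 to 2 (2 without induced EPC list 1, 2.73%, or uninduced EPC list 2, 3.17%). Regions in all 8 lists ranged from 17 to 19, other Hippo genes with a called region from 34 to 41, and Tead1 remained the 1 gene with an induced site throughout. The cause of these shifts was not tested; fewer lists make each presence rule easier to pass. No paired analysis was possible because no result comes from a test between groups. With depth unknown, a missing peak does not show absence. In 5 of the 11 called ATAC regions every peak scored under 100.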
